A study of Saccharomyces cerevisiae with 16 samples.

Results

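The 10 histone genes of budding yeast were followed in the wine strain Saccharomyces cerevisiae EC1118: HTA1 and HTA2 for H2A, HTB1 and HTB2 for H2B, HHT1 and HHT2 for H3, HHF1 and HHF2 for H4, HTZ1 for the H2A variant H2A.Z, and HHO1 for the linker histone H1. Members were the probes that carry one of these symbols in the platform annotation. Each gene had 1 probe, so 10 of the 6248 features of the array are described. Cells grew in a synthetic grape must with glucose at 200 g/L and assimilable nitrogen at 100 mg/L. In the ammonium and valine groups (3 samples each), a continuous flow of ammonium or valine supplied a further 100 mg/L nitrogen to the third tank of a continuous fermentation in 4 tanks. The no-addition group (4 samples) came from that same tank before any supplement, when resting cells had exhausted the nitrogen at 164 g/L residual glucose. The batch group (4 samples) came from stationary phase in stirred fermentors at 28 °C, also at 164 g/L residual glucose. All groups share the strain and the medium, and the labels name no mutation or drug.

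Samplings of a continuous condition lay 24 h apart in a running culture, and the supplements followed the no-addition state. The p-values therefore measure the spread between samplings, which may be technical, and a condition cannot be told apart from the time of the run. The labels give neither the temperature of the continuous culture nor the residual glucose after a supplement. Total RNA from whole cultures was measured, so a larger share of cells with a transcript and more transcript per cell cannot be told apart.

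Histones package DNA into nucleosomes, in which it winds around a core of H2A, H2B, H3 and H4. In budding yeast each core histone is encoded by a pair of gene copies, and the genes for H2A and H2B, like those for H3 and H4, lie as neighbours that are transcribed away from each other from a shared promoter. HTA1 neighbours HTB1, HTA2 neighbours HTB2, HHT1 neighbours HHF1, and HHT2 neighbours HHF2. Transcription of the core genes is tied to S phase, when new DNA has to be packaged, and an excess of histones outside S phase harms the cell. H2A.Z replaces H2A in nucleosomes beside many promoters, and Hho1 binds linker DNA between nucleosomes. The coding sequences of the copies are much alike, and probe sequences were not used here, so signal shared between the copies was not tested.

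Levels are deposited log2 intensities, on which a difference of 1 is a doubling. They compare 1 gene between groups and not different genes with each other, because probes differ in brightness. A gene was called when limma's moderated test gave an adjusted p under 0.05 over all 6248 features, and errors of differences are standard errors. The medians of all arrays lay between 9.09 and 9.10 and their maxima between 15.82 and 15.96. With levels between 13.30 and 14.16, HHT1, HHT2 and HHF1 lay nearest the bright end, where folds can be compressed. Between the 2 arrays of ammonium sample 3, which lay on different slides and were averaged, the SD of the difference over features was 0.17. For the histone genes these arrays differed by -0.06 to 0.34, most in HHT1 (13.62 on slide 1 and 13.29 on slide 2). Batch sample 1 lay farther from its group mates (a mean SD of difference of 0.26) than the other batch samples (0.17 to 0.20), and ammonium sample 2 (0.21) and valine sample 3 (0.19) lay farthest in their groups. Without these 3 samples, which were picked once the values had been seen, the members called higher and lower were 7 and 2 with ammonium and 6 and 2 with valine against no addition, and 7 and 0 without addition against batch. Over all 6248 features the calls then numbered 4469, 4433 and 4172, against 4224, 4242 and 3582 with all samples. The shares of all features called higher or lower without these 3 samples are not given. These member counts are therefore not read as results about the members.

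Against the no-addition state, ammonium and valine were followed by opposite movements of the H2B copies. HTB2 was about 3-fold higher and HTB1 was lower with either supplement, while HTA2, HHF2, HTZ1 and HHO1 were higher and HHT1 was lower. With ammonium 6 of the 10 members were called higher, 2 lower and 2 neither; of all features 67.6% were called, 32.1% as higher and 35.5% as lower. With valine 5 were called higher, 2 lower and 3 neither; of all features 67.9% were called, 32.3% as higher and 35.6% as lower. The median log2 fold change of the members was 0.27 with ammonium and 0.22 with valine, where the medians of all features were -0.02 and -0.01. Groups did not overlap for 9 members with ammonium and 7 with valine, compared with 71.5% and 69.6% of all features. Both comparisons use the same no-addition samples, so their values are given side by side and are not independent of each other.

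**Figure D1:**
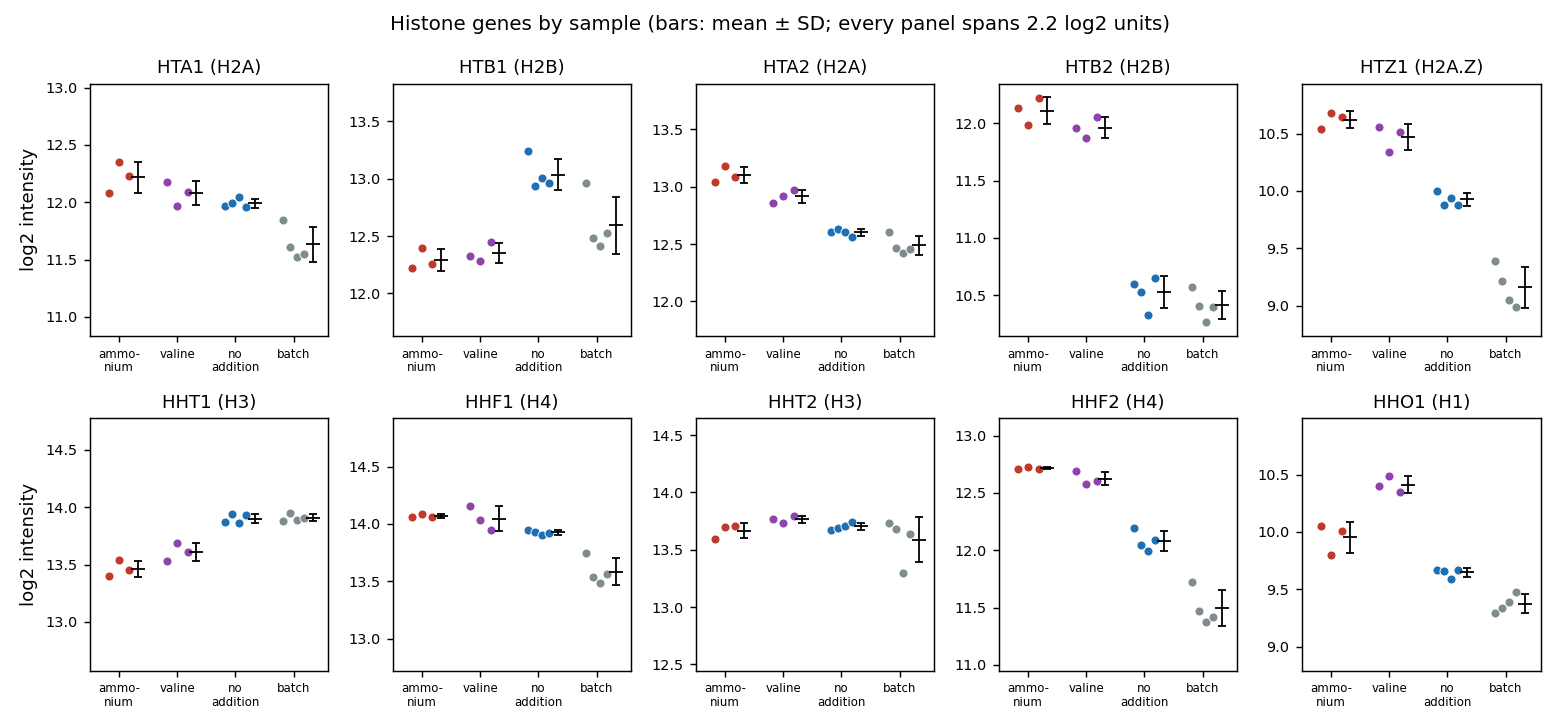
Log2 intensity (vertical axis, the same span in every panel) of the 10 histone genes in ammonium (n = 3), valine (n = 3), no-addition (n = 4) and batch (n = 4) samples; points are samples and bars are group means ± SD. All HTB2 samples with a supplement lie between 11.87 and 12.22, above all no-addition and batch samples. The mean of HTB1 is highest in the no-addition group, whose samples lie at 12.94 to 13.24, with batch sample 1 (12.96) inside that range.

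HTB2, the second copy of the H2B gene, had the largest change among the members. Its log2 intensities were 12.13, 11.98 and 12.22 with ammonium and 11.96, 11.87 and 12.05 with valine, against 10.60, 10.53, 10.33 and 10.65 without addition. No supplemented sample came near a no-addition sample. The log2 fold change was 1.58 ± 0.09 with ammonium (adjusted p = 1.14e-09, fold 3) and 1.43 ± 0.09 with valine (adjusted p = 3.81e-09, fold 2.7). Of all features, 149 had a larger positive change than HTB2 with ammonium and 183 had one with valine. Within slides the values were 1.59 and 1.62 with ammonium on slides 1 and 2, and 1.31 and 1.55 with valine. Slide 1 held 1 ammonium and 1 no-addition sample, and slide 2 held 1 valine and 1 batch sample. Ammonium sample 3 had an array on each slide, so the ammonium values of the 2 slides share a sample. This holds for all values within slides. In batch, HTB2 stood at 10.57, 10.41, 10.27 and 10.40, overlapping the no-addition samples.

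HTB1, the first H2B copy, moved the other way. It stood at 12.22, 12.40 and 12.26 with ammonium and 12.33, 12.28 and 12.45 with valine, against 13.24, 12.94, 13.01 and 12.96 without addition. All supplemented samples lay below all no-addition samples. HTB1 fell by 0.74 ± 0.11 with ammonium (adjusted p = 3.76e-05, 0.597 of the no-addition intensity) and by 0.69 ± 0.11 with valine (adjusted p = 8.29e-05, 0.622 of it). The values within slides 1 and 2 were -1.01 and -0.67 with ammonium and -0.93 and -0.52 with valine. In all 30 alternative settings HTB1 and HTB2 kept their calls in these comparisons.

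The batch samples of HTB1 stood at 12.96, 12.48, 12.41 and 12.53, and sample 1 lay within the range of the no-addition samples. The lower HTB1 level with ammonium against batch, -0.30 ± 0.11 (adjusted p = 0.0282), lost its call without batch sample 1 (-0.18, adjusted p = 0.0566) and without ammonium sample 1 or 3 (adjusted p = 0.0932 and 0.0781). With valine the difference from batch was -0.24 ± 0.11 (adjusted p = 0.0728). HTB1 was thus highest in the no-addition group, and the order below it, batch over valine over ammonium, held neighbours that did not differ past the threshold.

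The H2A copies changed less. HTA2 stood at 13.04, 13.18 and 13.09 with ammonium and 12.86, 12.92 and 12.97 with valine, against 12.61, 12.63, 12.61 and 12.56 without addition. Both supplemented groups lay above all no-addition samples, with differences of 0.50 ± 0.05 for ammonium (adjusted p = 1.4e-06) and 0.31 ± 0.05 for valine (adjusted p = 0.000143). Within slides these were 0.49 and 0.50 for ammonium, and 0.28 (adjusted p = 0.0942) and 0.37 for valine. In batch HTA2 stood at 12.61, 12.47, 12.42 and 12.46, and the difference between no addition and batch, 0.11 ± 0.05, was not called (adjusted p = 0.0758).

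HTA1 stood at 12.08, 12.35 and 12.23 with ammonium and 12.18, 11.97 and 12.09 with valine, against 11.97, 11.99, 12.05 and 11.96 without addition. Ammonium samples lay above the no-addition samples, the closest by a small margin, and valine samples overlapped them. The difference was 0.23 ± 0.08 with ammonium (adjusted p = 0.0246) and 0.09 ± 0.08 with valine (adjusted p = 0.356). The ammonium call rested on single samples: it was lost without ammonium sample 2 (0.16, adjusted p = 0.124) or 3 (adjusted p = 0.0627), without no-addition sample 1 (adjusted p = 0.0505) or 4 (adjusted p = 0.0511), and within both slides (0.36 and 0.19).

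Neither copy of the H3 gene was called higher with a supplement. HHT1 stood at 13.40, 13.54 and 13.45 with ammonium and 13.53, 13.69 and 13.61 with valine, against 13.87, 13.94, 13.86 and 13.93 without addition. All supplemented samples lay below the no-addition samples, which matched batch (13.88, 13.95, 13.89 and 13.91). HHT1 fell by 0.43 ± 0.05 with ammonium (adjusted p = 3.25e-06) and by 0.29 ± 0.05 with valine (adjusted p = 0.000165). Within slide 1, which held 1 no-addition sample, the values were -0.25 with ammonium (adjusted p = 0.15) and -0.26 with valine (adjusted p = 0.0884), and within slide 2 they were -0.50 and -0.30.

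HHT2 held nearly the same level throughout. Its intensities were 13.59, 13.70 and 13.71 with ammonium, 13.77, 13.73 and 13.79 with valine, 13.67, 13.69, 13.71 and 13.74 without addition, and 13.73, 13.68, 13.30 and 13.64 in batch. Batch sample 3 was the low one. Valine samples lay above ammonium samples and, by a margin lost in rounding, above batch samples, and the other pairs of groups overlapped. No comparison called HHT2, with differences of -0.04 ± 0.08 for ammonium (adjusted p = 0.706) and 0.06 ± 0.08 for valine (adjusted p = 0.532) against no addition.

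For H4 the second copy changed more than the first. HHF2 stood at 12.71, 12.73 and 12.71 with ammonium and 12.69, 12.58 and 12.60 with valine, against 12.19, 12.05, 11.99 and 12.09 without addition. The groups were far apart relative to their spread. The difference was 0.64 ± 0.07 with ammonium (adjusted p = 2.61e-06) and 0.54 ± 0.07 with valine (adjusted p = 1.37e-05). The within-slide values were 0.64 on either slide with ammonium, and 0.45 (adjusted p = 0.0668) and 0.56 with valine.

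HHF1, the first H4 copy, stood at 14.06, 14.09 and 14.06 with ammonium and 14.16, 14.03 and 13.95 with valine, against 13.95, 13.93, 13.90 and 13.92 without addition. Ammonium samples lay above all no-addition samples, and valine sample 3 equalled the highest of them. Differences of 0.15 ± 0.06 (adjusted p = 0.0589) and 0.12 ± 0.06 (adjusted p = 0.105) were not called. They passed the threshold in 10 and 6 of the 30 alternative settings.

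HTZ1, for the variant H2A.Z, stood at 10.54, 10.68 and 10.64 with ammonium and 10.56, 10.34 and 10.51 with valine, against 10, 9.88, 9.94 and 9.88 without addition and 9.39, 9.21, 9.05 and 8.99 in batch. The groups formed steps with no overlap between supplemented, no-addition and batch samples. HTZ1 rose by 0.70 ± 0.09 with ammonium (adjusted p = 4.24e-06) and by 0.54 ± 0.09 with valine (adjusted p = 4.92e-05) over no addition. Within slides 1 and 2 the values were 0.62 (adjusted p = 0.0663) and 0.73 with ammonium, and 0.45 (adjusted p = 0.0987) and 0.61 with valine.

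HHO1, for the linker histone, was the member that set the supplements apart. It stood at 10.05, 9.80 and 10.01 with ammonium and 10.40, 10.49 and 10.35 with valine, against 9.67, 9.66, 9.59 and 9.67 without addition and 9.29, 9.34, 9.39 and 9.48 in batch. None of the 4 groups overlapped another. HHO1 rose by 0.30 ± 0.07 with ammonium (adjusted p = 0.000835) and by 0.77 ± 0.07 with valine (adjusted p = 1.05e-07, fold 1.7). Within slides these were 0.44 and 0.28 with ammonium, and 0.78 and 0.71 with valine.

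Set directly against each other at equal added nitrogen, ammonium and valine differed in 2 histone genes. HHO1 was lower with ammonium by -0.47 ± 0.07 (adjusted p = 0.000562, 0.724 of the valine intensity), and HTA2 was higher by 0.19 ± 0.06 (adjusted p = 0.0436). Of all features 16.4% were called in this comparison, 7.59% as higher and 8.79% as lower, and 34.3% had groups that did not overlap, as 4 members had. The HTA2 call was lost in 16 of 30 alternative settings, among them the slide as a block (adjusted p = 0.0919) and each omission of ammonium sample 2 or 3, valine sample 1 or 2, any no-addition sample, or batch sample 2 or 4. For HHO1 the within-slide values were -0.34 (adjusted p = 0.325) and -0.43 (adjusted p = 0.0664). For the 8 genes without a call, the widest 95% intervals of the difference were those of HTB1 (-0.32 to 0.20) and HTB2 (-0.05 to 0.35). The interval was -0.26 to -0.03 for HHT1 and -0.13 to 0.17 for HHF1.

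The third stage without addition was then set against batch cells at the same residual glucose. Here 6 members were higher, 0 lower and 4 not called, while 57.3% of all features were called, 30.3% as higher and 27% as lower. The median of the members was 0.31, that of all features 0.02 and that of the 413 genes under 450 bases 0.20. All members but HHO1 are that short. The groups of 5 members did not overlap, against 52.4% of all features. HTZ1 rose most, by 0.76 ± 0.08 (adjusted p = 1.54e-06, fold 1.7; 0.85 and 0.69 within slides 1 and 2). HHF2 was higher at 12.19, 12.05, 11.99 and 12.09 without addition than at 11.72, 11.47, 11.37 and 11.42 in batch, by 0.58 ± 0.07 (adjusted p = 5.74e-06; 0.68 and 0.57 within slides).

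HTB1 was higher by 0.44 ± 0.10 (adjusted p = 0.00226), with batch sample 1 inside the range of the no-addition samples. HTA1 stood above batch (11.85, 11.61, 11.52 and 11.55) by 0.36 ± 0.08 (adjusted p = 0.0011), and HHF1 stood above batch (13.75, 13.54, 13.48 and 13.56) by 0.34 ± 0.06 (adjusted p = 0.000207). HHO1 was higher by 0.27 ± 0.06 (adjusted p = 0.00143). Within slide 1, HTB1 (0.60), HTA1 (0.32), HHF1 (0.36) and HHO1 (0.28) missed the threshold, and within slide 2 all 4 passed it, at 0.49, 0.39, 0.37 and 0.30. Batch sample 1 was the highest of the batch samples in all members but HHT1 and HHO1. HTA2 and HTB2 did not pass the test, at 0.11 ± 0.05 and 0.12 ± 0.08, nor did HHT2 at 0.12 ± 0.08 and HHT1 at -0.01 ± 0.05.

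Against batch, the supplemented groups add both steps, and these comparisons share samples with those above. With ammonium 7 members were higher and 2 lower, where 68.7% of all features were called, 33.2% as higher and 35.5% as lower. With valine 7 were higher and 1 lower, where 66.5% of all features were called, 31.6% as higher and 34.8% as lower. Groups did not overlap for 9 members in either comparison, against 65.6% of all features with ammonium and 62.5% with valine. HTB2 stood 1.70 ± 0.09 above batch with ammonium (fold 3.25) and 1.55 ± 0.09 with valine (fold 2.93). For HTZ1 these were 1.46 ± 0.09 and 1.31 ± 0.09, and for HHF2 1.22 ± 0.07 and 1.13 ± 0.07. HHO1 stood 0.58 above batch with ammonium and 1.04 ± 0.07 with valine.

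The genes thus fell into different orders of level across the conditions. HTZ1 and HHF2 were lowest in batch, higher without addition and highest with the supplements, which did not differ past the threshold. HHO1 had 4 separate levels, with batch lowest, then no addition, ammonium and valine. HTB2 and HTA2 had a low pair of no addition and batch, and HHT1 a high pair of the same groups. HTA1 and HHF1 were lowest in batch, and their neighbours above it (no addition, valine, ammonium) did not differ past the threshold.

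Because H2B copies moved in opposite directions, the log2 ratio of the copies was taken within each sample. The ratio of 2 probes is not a ratio of transcript amounts, and only its change between groups is read. HTB1 over HTB2 stood at 0.09, 0.42 and 0.04 with ammonium and 0.36, 0.41 and 0.40 with valine, against 2.63, 2.41, 2.69 and 2.32 without addition and 2.39, 2.08, 2.14 and 2.13 in batch. Every supplemented sample was therefore far below every sample of the nitrogen-exhausted groups. The ratio was lower by -2.33 with ammonium and -2.12 with valine than without addition, which is a 5.02-fold and a 4.34-fold shift towards HTB2.

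The ratios of the other core histones were lower with the supplements too, by less. With ammonium and valine against no addition the changes were -0.27 and -0.22 for HTA1 over HTA2, -0.40 and -0.35 for HHT1 over HHT2, and -0.49 and -0.42 for HHF1 over HHF2. In each of these 3 pairs the groups did not overlap. With 3 against 4 samples the exact two-sided permutation test cannot go below p = 0.0571, the value all 8 supplement comparisons reached, and after adjustment over 24 tests it was 0.0807.

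Between no addition and batch the pairs moved in different directions. The ratio was higher without addition for H2A by 0.25 (exact permutation p = 0.0286) and lower for H4 by -0.24 (exact permutation p = 0.0286), both 0.0807 after adjustment over 24 tests. For H2B it differed by 0.33 with overlapping groups (exact permutation p = 0.0571) and for H3 by -0.12 (exact permutation p = 0.257).

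**Figure D2:**
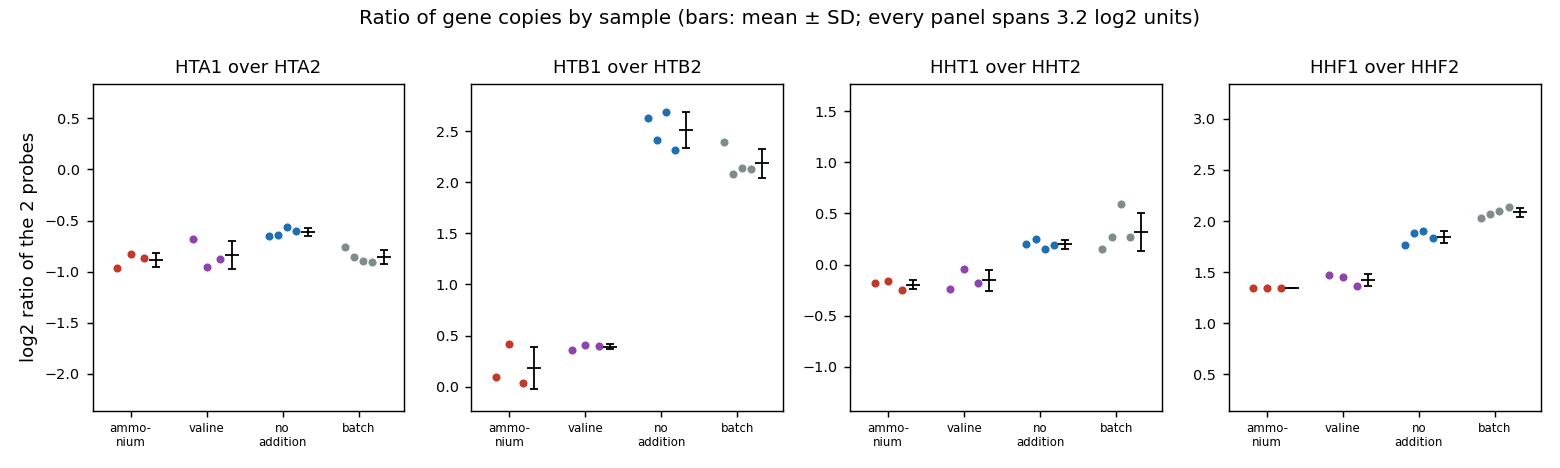
Log2 ratio of the first to the second gene copy (vertical axis) within each sample for H2A, H2B, H3 and H4, in ammonium, valine, no-addition and batch samples; points are samples and bars are means ± SD. The H2B ratio lies between 0.04 and 0.42 with a supplement and between 2.32 and 2.69 without addition.

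With a supplement against no addition, neighbours on the shared promoters did not move alike. With ammonium against no addition HTA1 rose by 0.23 and HTB1 fell by 0.74, a gap of 0.97, and HTA2 rose by 0.50 where HTB2 rose by 1.58. HHF2 was higher by 0.64 while its neighbour HHT2 stood at -0.04, and HHF1 stood at 0.15 while HHT1 fell by 0.43. With valine the HTA1 and HTB1 values were 0.09 and -0.69, and those of HTA2 and HTB2 were 0.31 and 1.43. Without addition against batch the H2A and H2B neighbours lay close, HTA1 and HTB1 at 0.36 and 0.44 and HTA2 and HTB2 at 0.11 and 0.12. The H3 and H4 neighbours lay apart there, HHT1 and HHF1 at -0.01 and 0.34 and HHT2 and HHF2 at 0.12 and 0.58. These gaps compare changes and were given no test.

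The histone genes are short, and the median of short genes shifted in some comparisons. The core genes and HTZ1 have coding lengths of 312 to 411 bases (312 for H4, 396 for H2B, 399 for H2A, 405 for HTZ1 and 411 for H3), and HHO1 has 777. The 413 genes under 450 bases had a median change of 0.20 without addition against batch, of -0.12 with ammonium and of -0.16 with valine against no addition. Their quartiles in these 3 comparisons were -0.04 to 0.47, -0.60 to 0.23 and -0.71 to 0.15, so single short genes moved either way. Their median deviation from the mean over samples lay between 0.086 and 0.127 in the no-addition samples. It was -0.032 to -0.141 in batch samples 2 to 4, but 0.088 in batch sample 1. In the supplemented samples it ran from -0.104 to 0.025. Genes of 1500 bases or more had medians of -0.04, 0.01 and 0.01 in the same 3 comparisons. Against batch, the genes under 450 bases had medians of 0.03 with ammonium and -0.01 with valine.

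After removal of a smooth trend with length from each sample, the changes of the short members moved down without addition against batch and up with either supplement against no addition. HTZ1 (0.61), HHF2 (0.37), HTB1 (0.28), HHO1 (0.26) and HTA1 (0.20) kept a call without addition against batch, but HHF1 was no longer called (0.13, adjusted p = 0.0639) and HHT1 was called lower (-0.16, adjusted p = 0.0243). With ammonium HTB1 stayed lower (-0.58, adjusted p = 2.02e-05), HTB2 stayed higher (1.75) and HHF1 gained a call (0.36, adjusted p = 9.39e-05). With valine HTB1 stayed lower (-0.47, adjusted p = 0.000145) and HTB2 higher (1.65), while HHT1 lost its call (-0.09, adjusted p = 0.192). HTA1 (0.30), HHT2 (0.26) and HHF1 (0.41) then gained calls with valine. Against batch the ammonium values hardly moved (HTB2 1.70, HTZ1 1.46), while with valine HHF1 stood at 0.54 and HHF2 at 1.21, and HHT2 gained a call (0.22, adjusted p = 0.00882). HHO1, the longer member, moved little. The part of gene length in the results themselves was not tested further.

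**Figure D3:**
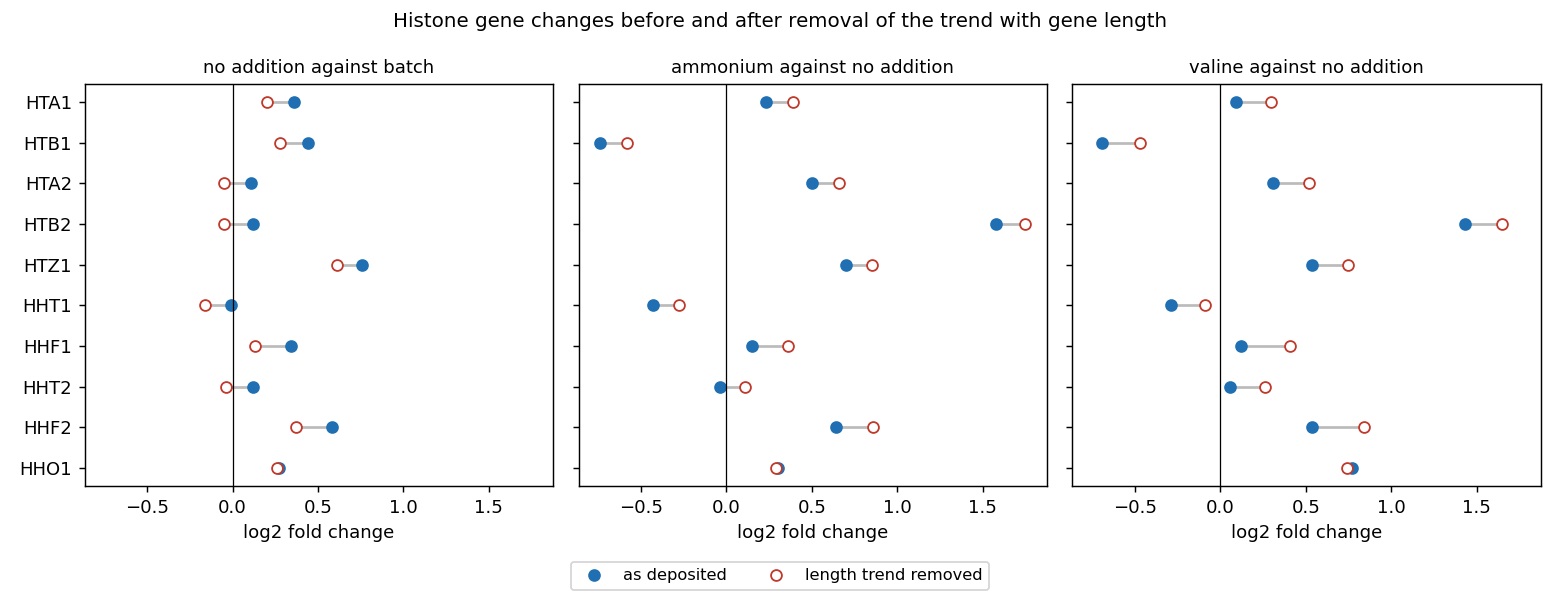
Log2 fold change (horizontal axis) of each histone gene in 3 comparisons, from deposited values (filled points) and after a trend with coding length was removed (open points). All short members shift left without addition against batch and right with a supplement; HTB2 with ammonium shifts from 1.58 to 1.75.

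Genes that act on histones were counted by list, beside 32.1% of all features called higher and 35.5% lower with ammonium, and 32.3% and 35.6% with valine. Of 12 regulators of histone gene transcription, 5 were higher and 5 lower with ammonium (median 0.14), and 5 higher and 4 lower with valine (median 0.10). The HIR subunit gene HIR2 was higher with ammonium (0.38 ± 0.05) and valine (0.29 ± 0.05). The other HIR subunit genes, named after their values were seen, were lower with ammonium and valine. These were HIR1 (-0.12 ± 0.05 and -0.24 ± 0.05), HIR3 (-0.28 ± 0.06 and -0.27 ± 0.06) and HPC2 (-0.24 ± 0.05 and -0.16 ± 0.05). The chaperone gene ASF1 was higher with ammonium (0.48 ± 0.09) and valine (0.57 ± 0.09). RTT106, for a histone chaperone, was higher with ammonium (0.41 ± 0.11) and valine (0.64 ± 0.11). Of 13 chaperones and assembly factors, 8 were higher and 3 lower with ammonium and 9 were higher and 4 lower with valine, with medians of 0.33 and 0.30. VPS75, for a chaperone of H3 and H4, rose by 0.72 ± 0.04 and 0.60 ± 0.04, and POB3, of the FACT complex, by 0.52 ± 0.05 and 0.42 ± 0.05. YTA7 (-0.19 ± 0.06) and HIF1 (-0.17 ± 0.05) were lower with ammonium than with valine.

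The SWR1 complex puts H2A.Z into nucleosomes. Of its 12 genes, 2 were higher and 4 lower with either supplement, and the median was -0.05. The genes higher with both were RVB1 (0.62 ± 0.07 with ammonium and 0.50 ± 0.07 with valine) and RVB2 (0.44 ± 0.06 and 0.65 ± 0.06). VPS72 fell by 0.36 ± 0.05 and by 0.35 ± 0.05. SWR1 itself, named after its values were seen, was lower with both too (-0.37 ± 0.07 and -0.51 ± 0.07). Of 20 genes for histone acetylation and deacetylation, 10 were higher and 4 lower with ammonium and 8 were higher and 3 lower with valine. HPA2, for an acetyltransferase, fell by 2.81 ± 0.07 and by 2.72 ± 0.07, and the deacetylase gene HST3 rose by 0.48 ± 0.05 and 0.37 ± 0.05. Of 10 genes for histone methylation and ubiquitination, 5 were higher and 4 lower with ammonium, and 6 were higher and 4 lower with valine. The H3 methylase gene SET2 was higher with ammonium (0.91 ± 0.10) and valine (0.66 ± 0.10), and the H3 demethylase genes JHD2 (-0.60 ± 0.05 and -0.46 ± 0.05) and RPH1 (-0.85 ± 0.11 and -1.06 ± 0.11) were lower with both. SET1, for another H3 methylase, was higher with valine (0.40 ± 0.04) and stood at 0.09 ± 0.04 with ammonium (adjusted p = 0.0579).

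Of 5 genes that limit excess histones, 2 were higher and 3 lower with ammonium, and 1 was higher and 3 lower with valine. The ubiquitin ligase gene TOM1 fell by 0.56 ± 0.07 with ammonium and by 0.55 ± 0.07 with valine, and UBC5, for a ubiquitin-conjugating enzyme, fell by 1.00 ± 0.12 and by 0.99 ± 0.12. PSH1 was lower too (-0.27 ± 0.06 and -0.18 ± 0.06). RAD53, named after its values were seen, was higher with ammonium (0.33 ± 0.11) and valine (0.69 ± 0.11). UBC4 was higher with ammonium (0.36 ± 0.14) and not called with valine (-0.10 ± 0.14). CSE4, the H3 variant of centromeres, fell by 0.55 ± 0.06 with ammonium and by 0.30 ± 0.06 with valine against no addition, and its chaperone gene SCM3 by 0.27 ± 0.07 with ammonium, where with valine it stood at -0.05 ± 0.07 (adjusted p = 0.562). Between supplements, CSE4 was lower with ammonium (-0.25 ± 0.06, adjusted p = 0.0144).

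Without addition against batch, 30.3% of all features were called higher and 27% lower. Of the 12 regulators 2 were higher and 3 lower, and of the 13 chaperones 7 were higher and 4 lower. Of the 12 SWR1 genes 3 were higher and 3 lower. SPT10, for an activator of histone gene transcription, was lower (-0.42 ± 0.05) and HIR2 higher (0.28 ± 0.05). NHP6A, for a DNA-bending chromatin protein, was higher (0.76 ± 0.07) and FPR4, for a nuclear proline isomerase, lower (-1.07 ± 0.10). Of the acetylation genes 5 were higher and 5 lower, with HST3 (0.68 ± 0.04) and HOS3 (0.55 ± 0.06) among the higher. VPS72 (-0.31 ± 0.04), SWC3 (-0.37 ± 0.06), RAD6 (-0.40 ± 0.06), LGE1 (-0.28 ± 0.05), PSH1 (-0.29 ± 0.05), SCM3 (-0.48 ± 0.06) and CSE4 (-0.26 ± 0.05) were lower, and UBC4 was higher (0.57 ± 0.13).

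Between ammonium and valine, 7.59% of all features were called higher with ammonium and 8.79% lower. Of the 20 acetylation genes 2 were higher and 1 lower. At most 1 gene was called in either direction in each other list of histone-related genes. HOS3 (-0.33 ± 0.07), SET1 (-0.31 ± 0.04) and RVB2 (-0.21 ± 0.06) were lower with ammonium, and HAT2 (0.25 ± 0.06) and UBC4 (0.46 ± 0.15) were higher.

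Markers of S phase moved with the supplements. Of all features, 32.1% were called higher and 35.5% lower with ammonium against no addition, and 32.3% and 35.6% with valine. Without addition against batch these shares were 30.3% and 27%, and for ammonium against valine 7.59% and 8.79%. Of 26 genes for S phase and DNA replication, 22 were higher and 0 lower with ammonium and 23 were higher and 0 lower with valine, with medians of 0.76 and 0.62. RNR1, for the large subunit of ribonucleotide reductase, rose by 2.64 ± 0.08 and 2.53 ± 0.08, and CDC21, for thymidylate synthase, by 1.48 ± 0.07 and 1.44 ± 0.07. Without addition against batch, 12 of the 26 were higher and 2 lower (median 0.22), RNR1 by 0.98 ± 0.08 and the G1 cyclin gene CLN1 by 1.17 ± 0.11. Of 7 genes of late mitosis, 6 were higher in each of these 3 comparisons. The remaining one, ASE1, named after its values were seen, was lower without addition against batch (-0.17 ± 0.07, adjusted p = 0.0344). CLB1, for a mitotic cyclin, stood at 1.74 ± 0.08, 1.73 ± 0.08 and 1.54 ± 0.07. BUD4 was higher by 1.17 ± 0.07 and 1.02 ± 0.07 with the supplements, and SWI5, for a transcription factor of late mitosis, by 1.41 ± 0.07 without addition against batch. Of the same lists, ammonium over valine had 3 S phase genes higher, with CDC9 (0.23 ± 0.06) and RFA1 (0.28 ± 0.09) among them, and 2 of late mitosis, CDC5 (0.27 ± 0.06) and SWI5 (0.27 ± 0.08). The part of a change in the share of dividing cells in the histone changes was not tested.

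**Figure D4:**
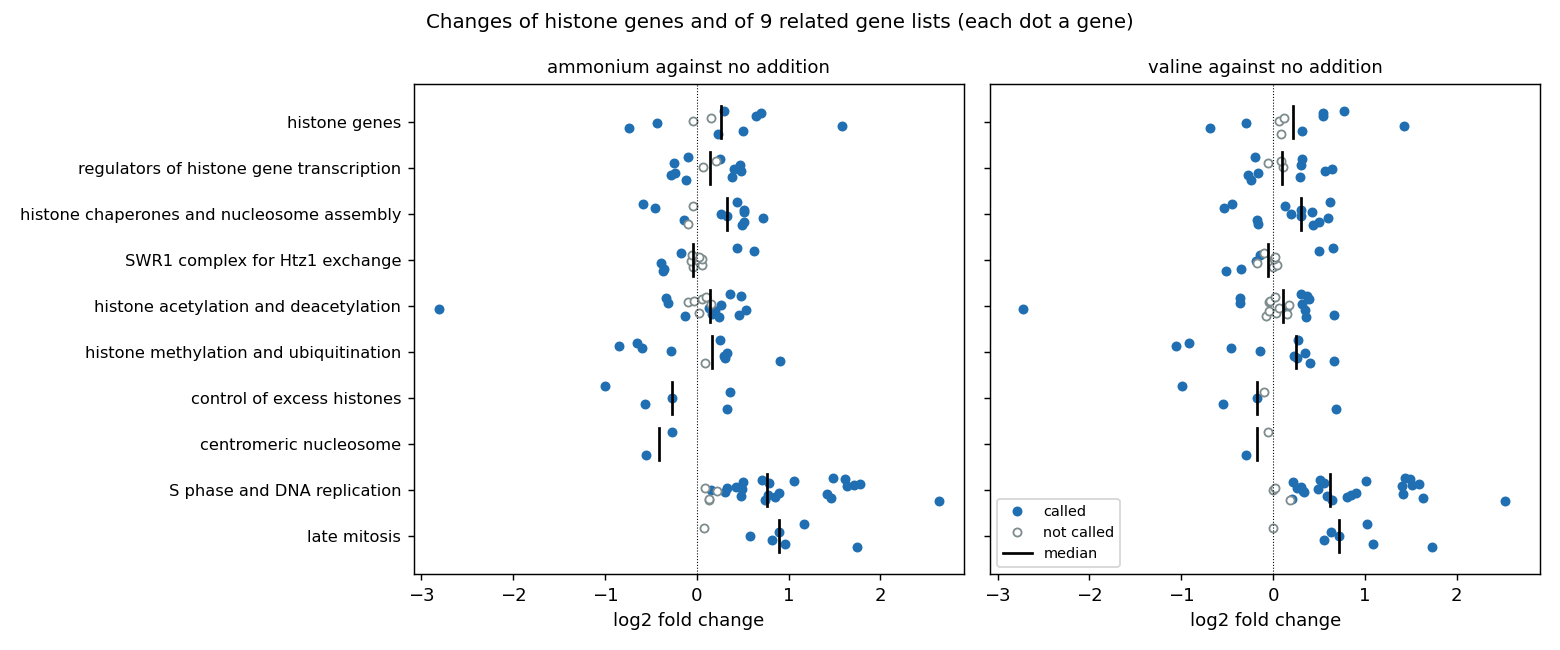
Log2 fold changes (horizontal axis) of the histone genes and of 9 lists of histone-related and cell cycle genes, with ammonium (left) and valine (right) against no addition; filled points are called genes, open points are genes not called, and upright lines are medians. The 26 S phase genes lie mostly above 0 with ammonium, with a median of 0.76, and those of the SWR1 complex lie around 0, with a median of -0.05.

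Averaged over the 8 core genes, each centred on its own mean, the profile stood at 0.22 with ammonium, 0.18 with valine, -0.02 without addition and -0.28 in batch, where samples ran from -0.41 to -0.11. The genes whose levels followed this profile most closely over the 14 samples were YIF1 of vesicle transport (Pearson r = 0.983), BUD9 of bud site choice (0.977), the cell wall mannoprotein gene TIR1 (0.976), MED4 of Mediator (0.975) and the RNA polymerase II subunit gene RPB7 (0.975). The 14 points share 4 conditions, so these values describe the likeness of 4 group levels and carry no p. Within this average HTB1 and HHT1 were lower with the supplements than without addition, where the average was higher.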

How the data were processed

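RNA was measured on 1-colour Cy3 arrays, for which the authors deposited 1 log2 intensity per probe. Per the submitters' processing notes R 2.13.1 and limma were used; the method of normalization is not given in the sources used here, and that they are on a log2 scale follows from their range. Arrays had nearly the same distribution, so differences are relative to the whole array, and a change in total mRNA would not be seen. A single gene symbol was attached to 5220 of the 6271 probes and none to 1051, and 0 probes had more than 1; probes of a gene were averaged into 6248 features. The 14 samples (3 ammonium, 3 valine, 4 no addition, 4 batch) entered 1 linear model (limma 3.58.1 under R 4.3.3, lmFit followed by eBayes) with 10 residual degrees of freedom, two-sided tests, Benjamini-Hochberg adjustment over all features and no filter on intensity. The number of arrays limits the precision. The 2 arrays of ammonium sample 3 were averaged. A sample whose labels name both ammonium and valine was left out of every comparison. Copy ratios were tested by exact two-sided permutation. The length trend was a loess (span 0.5) of each sample's deviations on log2 coding length, taken from the RefSeq table of assembly R64, which gave a length to 5195 features. The limma script was tested on simulated data.

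Members and lists were chosen with earlier results of these data known. The genes named are the members, CSE4, the 2 called genes with the smallest adjusted p in each list and each of the first 4 comparisons, and the 5 genes most like the core profile. A few others, marked so, were named after their values were seen. Alternatives were the slide or the replicate number as a block, each slide alone, each sample left out, either array of ammonium sample 3 alone, 3 other normalizations, array weights, a trend in the variance prior, the dimmest 25% of features left out, the brightest probe of a gene, the compared groups alone and the length trend removed. Plots used matplotlib 3.10.9 under Python 3.11.15.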

Additional observations from a re-analysis of the deposited data

Results flagged for a closer look

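The sample that carries labels of both supplements belonged to no comparison. It stood above every no-addition sample in 8 histone genes, at log2 intensities of 12.36 for HTA1, 13.19 for HTA2, 12.38 for HTB2, 13.75 for HHT2, 14.03 for HHF1, 12.93 for HHF2, 10.81 for HTZ1 and 9.71 for HHO1. The margin was small for HHT2 and HHO1, where the highest no-addition samples stood at 13.74 and 9.67. Its HTB1 (12.42) and HHT1 (13.38) lay below the no-addition samples. Its HHO1 lay below the ammonium samples (9.80 to 10.05) and the valine samples (10.35 to 10.49). The share of all features outside the no-addition range in this sample was not taken, so the count is not read as a result about the members. No sample of the 28 groups of 4 that were tested stood alone by Dixon's criterion. The ammonium and valine groups, of 3 samples each, were not among them. With 4 values in a group the criterion finds only a sample very far from the others, so outliers are not excluded.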

How the results depend on the processing

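Arrays, not depth, set the precision here, and dim or very bright probes have compressed folds. HTB2 and HTB1 kept their calls against no addition in all 30 settings: HTB2 lay between 1.52 and 1.75 with ammonium and 1.31 and 1.65 with valine, and HTB1 between -1.01 and -0.58 and between -0.93 and -0.47. Of 19 same-numbered pairs of samples, 4 had a correlation of deviations over 0.1, and the range was -0.57 to 0.31. With the replicate block, HTA1 with ammonium lost its call (0.21, adjusted p = 0.0711) and so did HTA2 between the supplements (adjusted p = 0.0896), which left 0 members higher there. The cause was not tested here or in the cases below. Single slides hold fewer samples.

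Within slide 1, 1682 genes were called without addition against batch, 2477 with ammonium and 2749 with valine against no addition, and 38 between supplements; within slide 2 these were 2387 without addition against batch and 228 between supplements. Between supplements 2471 were called with array weights and 1576 without batch 1, ammonium 2 and valine 3. The member counts that follow are given without the shares of all features called higher or lower in each setting. They are therefore not read as results about the members. Members called higher numbered 2 within slide 1 without addition against batch and 2 with valine against no addition, and 8 with valine after the length trend was removed. Between supplements 0 were higher with the slide as a block, within either slide, with the 2 groups alone or with a trend in the variance prior, and 3 with array weights. Members called lower numbered 1 without addition against batch with the length trend removed, 1 with ammonium within slide 1, and 1 with valine within slide 1 or with the length trend removed. Between supplements 0 were lower within either slide, and 2 by the slide 2 array of ammonium sample 3 or with array weights. Against batch, 1 was lower with ammonium with the slide as a block, within slide 2 or with the 2 groups alone, and 0 within slide 1; with valine 0 were lower within slide 2 and 2 with array weights.

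Leaving out 1 sample at a time gave 3303 to 3862 calls without addition against batch, 3836 to 4390 with ammonium and 3927 to 4401 with valine against no addition, 501 to 1322 between supplements, and 3986 to 4390 and 3880 to 4242 against batch. Members called higher ranged over 6 to 7, 5 to 7, 5 to 6, 0 to 1, 7 to 7 and 7 to 8 in the same order, and members lower over 0 to 0, 2 to 2, 2 to 2, 1 to 1, 1 to 2 and 1 to 2. These member counts too stand without the shares of all features called higher or lower. They are not read as results about the members. The ranges of values that changed sign were -0.02 to 0.01 for HHT1 without addition against batch, -0.06 to 0.00 for HHT2 with ammonium against no addition, -0.02 to 0.08 for HHF1 between supplements and -0.02 to 0.13 for HHT2 with ammonium against batch. For HTA1 over HTA2 they were -0.11 to 0.03 between supplements, -0.05 to 0.01 with ammonium against batch and -0.06 to 0.08 with valine against batch, and for HHT1 over HHT2 -0.09 to 0.01 between supplements.

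Sign changes met values near 0. With the length trend removed, HTA2, HTB2 and HHT2 stood at -0.05, -0.05 and -0.04 without addition against batch. HHT1 stood there at 0.02 after renewed quantile normalization and 0.00 with array weights. HHT2 with ammonium against no addition stood at 0.18 within slide 1, 0.01 by the slide 1 array of ammonium sample 3, 0.03 with cyclic loess and 0.11 with the length trend removed. Between supplements within slide 1, HHT1 stood at 0.01 and HHT2 at 0.10. HHF1 stood there at -0.02 by the slide 2 array, -0.01 with array weights, -0.05 with the length trend removed and -0.03 without the 3 samples. HHT2 with ammonium against batch stood at -0.07 within slide 2. HTA1 over HTA2 stood at 0.04 between supplements and 0.08 with ammonium against batch within slide 1, at 0.00 with ammonium against batch by the slide 1 array, and at -0.02 with valine against batch within slide 2.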
